A study of Homo sapiens with 647 samples.

Results

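The antiviral interferon-stimulated genes described here are 46 named genes, all of them found among the 54592 genes of the deposited count table. They were read in 647 SMART-Seq2 libraries of T47D, an estrogen receptor positive luminal breast cancer cell line. The cells had been infected with lentivirus (plasmid pLX307) carrying FGFR2 K660N, FGFR2 N550K, FGFR2 M538I, FGFR2 wild type (WT), FGFR1, FGF3 or GFP, or were left as the parental line. FGFR1 and FGFR2 are receptor tyrosine kinases for fibroblast growth factors, FGF3 is a secreted ligand of these receptors, and the GFP and parental lines carry no added receptor or ligand. Cells were plated for 48 h and then treated for 24 h with vehicle (DMSO) or with combinations of fulvestrant (Fulv, 100 nM, an estrogen receptor degrader), palbociclib (Palbo, 1 uM, a CDK4/6 inhibitor), FIIN-3 (100 nM, a covalent FGFR inhibitor that also acts on EGFR), trametinib (Tram, 500 nM, a MEK inhibitor) and the ligand FGF2. The dose of FGF2, the promoter that drives each insert, and whether a line was 1 clone were not stated.

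The libraries form groups of line and treatment with 4 to 6 libraries each. The numbers in the sample titles run through 2 times, and each run is treated as a set. Set 1 held 64 groups, with the arms DMSO, FGF2, Fulv, Fulv+FGF2, FIIN-3+FGF2, Fulv+FGF2+FIIN-3, Fulv+FGF2+Tram and Fulv+Palbo+FGF2. Set 2 held 48 groups, with the arms FIIN-3, Palbo, Palbo+FGF2, Palbo+FGF2+FIIN-3, Fulv+Palbo+FGF2+FIIN-3 and Fulv+Palbo+FGF2+Tram. The FGF3 line had its own arms without FGF2, and in set 2 an arm labelled control, and N550K also had FIIN-3 and Fulv+FIIN-3 in set 1. All comparisons stay within a set. Nothing in the labels tells if a group's libraries came from separate cultures, so p-values measure the spread between these libraries, which may be technical. In bulk RNA, more cells that carry a transcript and more transcript per cell cannot be told apart.

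Interferons are secreted when cells sense viral nucleic acid. Type I and type III interferons signal through JAK1 and TYK2 to a complex with STAT2 and IRF9, which binds the interferon-stimulated response element (ISRE) in the promoters of genes such as these. A further route runs through the GAS element, and IRF1 can bind ISRE-like sites on its own. The products sense viral RNA and set off its decay (the OAS family), bind it (the IFIT family), block entry and budding at membranes (IFITM1, IFITM2, IFITM3, BST2, RSAD2), trap viral particles (MX1, MX2, GBP1, GBP2) or tag proteins with the ubiquitin-like ISG15. In breast cancer cells a raised level of such genes without infection is a well-known state.

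Promoter sequence from RefSeq (GRCh38.p14, 250 bases before to 50 after each annotated start) matched 36 of the 46 members by symbol. The ISRE core was searched on both strands as GAAA, any 2 bases, GAAA and was found in 25 of those 36 members, which is 69.4% of them. It was found in 29 of the 50 promoters of members (58%), and in 3.57% of the 35116 promoters of all genes. The GAS core TTCNNNGAA was found in 10 members (27.8%), in 22% of the promoters of members and in 7.66% of all promoters. A match is a run of letters, not a bound site. The sequences below run from 10 bases before the outermost ISRE match to the base before the start site, 5′ to 3′ on the plus strand. Capitals mark the ISRE matches, which read TTTC, any 2 bases, TTTC where they lie on the other strand. These 5 genes are shown as examples of members with a match. Not every member that leads in the results below has a match: OAS1 had none, and IFIT2 had no promoter sequence to search.
ISG15, chr1:1013374-1013496: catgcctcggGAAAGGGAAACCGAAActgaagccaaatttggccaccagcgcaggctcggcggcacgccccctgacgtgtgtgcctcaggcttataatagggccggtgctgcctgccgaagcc
IFIT1, chr10:89392497-89392622: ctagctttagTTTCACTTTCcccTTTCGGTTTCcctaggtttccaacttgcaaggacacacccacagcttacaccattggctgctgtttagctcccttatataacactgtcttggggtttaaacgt
IFIT3, chr10:89327831-89327996: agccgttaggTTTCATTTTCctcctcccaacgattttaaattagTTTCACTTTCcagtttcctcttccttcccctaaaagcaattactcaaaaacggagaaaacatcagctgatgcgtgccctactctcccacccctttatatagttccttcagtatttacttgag
IFI44L, chr1:78620274-78620447: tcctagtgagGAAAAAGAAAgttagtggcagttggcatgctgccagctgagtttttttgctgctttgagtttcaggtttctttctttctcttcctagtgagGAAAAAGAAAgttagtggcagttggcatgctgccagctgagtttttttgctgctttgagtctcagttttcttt
RSAD2, chr2:6877622-6877776: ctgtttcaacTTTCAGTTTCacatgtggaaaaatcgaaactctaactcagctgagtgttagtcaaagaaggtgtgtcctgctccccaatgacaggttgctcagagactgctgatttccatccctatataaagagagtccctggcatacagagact
ISG15 holds a pair of overlapping matches, IFIT1, IFIT3 and IFI44L hold 2 separate matches each, and RSAD2 holds 1.

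Total counts per library ran from 512961 to 13012200 in set 1 and from 619509 to 4804940 in set 2, and the members took at most 0.391% of counts in set 1 and 0.704% in set 2. The inserted genes matched the labels: FGFR2 stood at 117.6 to 1269 CPM (counts scaled to a common library total) in the 4 FGFR2 lines, against 3.66 to 34.1 CPM in the 160 GFP and parental libraries. In 14 libraries of set 1 and 2 of set 2 the share of counts from MT-RNR2 (large mitochondrial ribosomal RNA) was below 5%, and these libraries stand apart. The range for the FGFR2 lines leaves them out, and in those of the FGFR2 lines FGFR2 stood at 27.9 to 108.3 CPM. Counts of called members that these libraries touch are given with and without them, as are the means at DMSO and the folds of the leading genes at DMSO. The luminal markers summed to at least 6720 CPM in every library, and 10 markers of leukocytes, fibroblasts and endothelium to at most 62.7 CPM.

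Across the groups of set 1, the mean log2 CPM over the 46 members was highest in the K660N or the N550K line in each arm that all receptor lines share. At DMSO it was 3.68 ± 0.17 in the K660N line, 3.10 ± 0.41 in the N550K line, 2.44 ± 0.58 in the M538I line (n = 5), 2.27 ± 0.38 in the WT line, 2.10 ± 0.47 in the FGFR1 line (n = 5), 1.53 ± 0.24 in the FGF3 line (n = 5), 1.90 ± 0.10 in the GFP line and 1.87 ± 0.06 in the parental line (SD, n = 6 where no n is given). The 6 K660N libraries (3.48 to 3.90) and the 6 N550K libraries (2.59 to 3.67) all lay above the 6 GFP libraries (1.73 to 1.98). The neighbours M538I, WT and FGFR1 overlapped each other and the GFP line, and K660N and N550K overlapped too. Leaving out the libraries that stand apart, the mean was 3.15 in N550K, 2.28 in M538I, 2.36 in WT, 1.89 in FGFR1 and 1.89 in GFP. The mean of the FGF3 line was below that of GFP, while the median over members was 0.08 above it, so no direction is read from it.

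**Figure D1:**
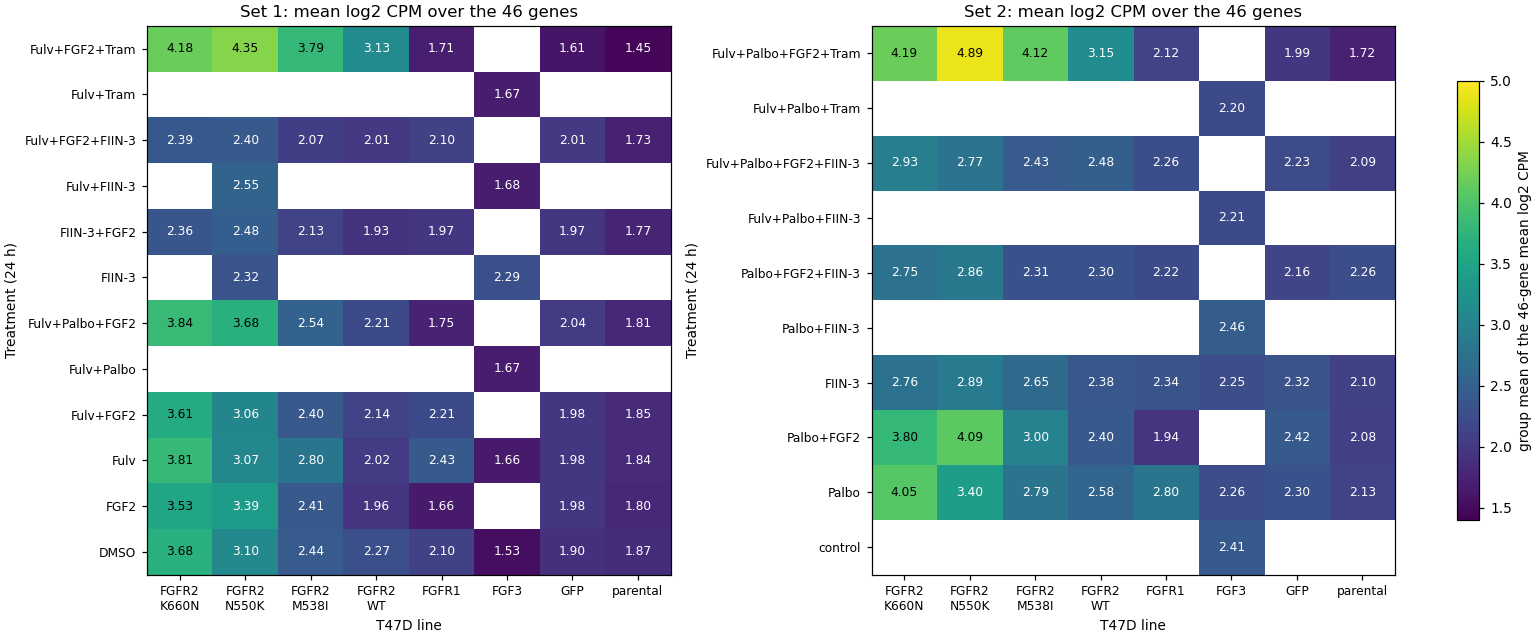
Group means of the mean log2 CPM over the 46 members, as colour and as a printed value, by treatment (vertical) and T47D line (horizontal), with set 1 on the left and set 2 on the right; empty cells are combinations not analysed here. The values in the K660N, N550K and M538I columns are higher in the trametinib rows than in the FIIN-3 rows, for example 4.35 with Fulv+FGF2+Tram and 2.40 with Fulv+FGF2+FIIN-3 in N550K. The WT column has the same order, with 3.13 and 2.01 in these 2 arms of set 1. In set 2 WT has 3.15 with Fulv+Palbo+FGF2+Tram and 2.48 with Fulv+Palbo+FGF2+FIIN-3.

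Against GFP at DMSO, 18 of the 40 members that could be tested in the K660N line were higher and 0 lower, where 0.923% of all tested genes were higher and 0.591% lower (edgeR quasi-likelihood test, Benjamini-Hochberg adjusted p under 0.05). In the N550K line 7 of 35 were higher and 0 lower, against 0.954% and 0.644% of all genes, 1.6% in either direction. The median log2 fold change was 1.38 over the members tested in K660N and 1.13 over those tested in N550K, where the medians over all genes were -0.01 and 0.01. A member passes the filter on low counts also through the line where it is high, so these counts and medians are not over all 46. Without the libraries that stand apart the counts were 24 of 41 in K660N and 19 of 35 in N550K, again with 0 lower. In the parental, FGFR1, WT and M538I lines 0 members were called, where 0% of all genes were higher in parental, 0.00787% in FGFR1, 0.00808% in WT and 0.0159% in M538I, and 0% were lower. At an unadjusted p under 0.05 the counts were 3 in parental, 2 in FGFR1, 7 in WT and 9 in M538I. DESeq2 called 0 members in parental, FGFR1 and WT and 2, both higher, in M538I. With the libraries that stand apart left out, M538I had 1 member called higher and the other 3 lines had 0 calls.

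The IFIT proteins bind viral RNA ends and hold back its translation. IFIT3 stood at 38.6 CPM in the lowest, 78.9 in the middle and 126.8 in the highest of the 6 K660N libraries, and at 9.40, 15.1 and 77.7 CPM in the N550K libraries. In the GFP libraries it stood at 0, 0.254 and 0.649 CPM, and neither line overlapped GFP. Its log2 fold change was 7.84 ± 0.44 in K660N (edgeR, estimate ± SE, adjusted p = 2.2e-08) and 6.34 ± 0.69 in N550K (edgeR adjusted p = 0.00032). With GFP near 0, IFIT3 passed the filter on low counts through the K660N and N550K libraries. These folds and p-values of IFIT3 are therefore no support beyond the reads themselves. In the WT line it ran from 0.276 to 30.8 CPM with a median of 6.62, so some WT libraries lay within the N550K range and others within the GFP range. The 5 M538I libraries held 0.251, 9.11, 32.3, 1.17 and 21.8 CPM, and those at 32.3 and 1.17 stand apart. IFIT1 stood at 22.6, 39.7 and 48.4 CPM (lowest, median, highest) in K660N libraries and at 6.23, 8.88 and 24.8 CPM in N550K libraries, against 1.02, 1.96 and 2.78 CPM in GFP libraries. It was higher by 4.19 ± 0.28 on the log2 scale in K660N (edgeR adjusted p = 1.7e-07) and by 2.72 ± 0.40 in N550K (adjusted p = 0.0027). IFIT2 stood at 25.4, 39.3 and 65.5 CPM in K660N libraries, against 0.282, 1.76 and 4.44 CPM in GFP libraries (4.41 ± 0.43, edgeR adjusted p = 2.4e-05). In N550K libraries IFIT2 ran from 1.33 to 20.6 CPM, overlapped GFP and was not called, though it was without the libraries that stand apart (2.87 ± 0.58, edgeR adjusted p = 0.0039). In the FGFR1 line the 1 library that stands apart held 67.7 CPM of IFIT2 and the other 4 held 0.626 to 1.95 CPM.

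ISG15 encodes the modifier that UBE2L6 and HERC5 attach to other proteins and that USP18 removes. It stood at 14.9, 39.6 and 62.8 CPM in K660N libraries (lowest, median, highest) and at 7.96, 24.5 and 208.8 CPM in N550K libraries, against 0.903, 3.49 and 9.72 CPM in GFP libraries. The K660N libraries lay above every GFP library, and the lowest N550K library lay below the highest GFP library, which stands apart. The log2 fold change was 3.38 ± 0.51 in K660N (edgeR adjusted p = 0.0013) and 3.99 ± 0.85 in N550K (edgeR adjusted p = 0.028). The N550K libraries at 208.8 and 61.8 CPM stand apart, and the other 4 held 7.96 to 25.9 CPM. Of the other members of this group UBE2L6, HERC6, USP18 and TRIM25 could be tested, and none was called at DMSO in K660N or N550K.

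Among the OAS enzymes, which make the messenger that activates RNase L, OAS1 stood at 14.2, 26.9 and 34.7 CPM in K660N libraries and at 12.53, 23.7 and 51.5 CPM in N550K libraries, against 0, 1.13 and 2.92 CPM in GFP libraries. No library of either line fell within the GFP range, and the log2 fold changes were 4.22 ± 0.51 and 4.30 ± 0.63 (edgeR adjusted p = 0.00025 in K660N and 0.0026 in N550K). OASL (3.42 ± 0.41) and OAS3 were also higher in K660N, and OAS2 was not called. MX1, a dynamin-like GTPase that traps viral nucleocapsids, stood at 58.9, 79.3 and 109.4 CPM in K660N libraries and at 12.9, 36.9 and 77.3 CPM in N550K libraries, against 7.56, 7.78 and 15.03 CPM in GFP libraries. It was higher by 2.96 ± 0.25 in K660N and by 1.98 ± 0.36 in N550K (edgeR adjusted p = 4.5e-06 and 0.0099), where K660N did not overlap GFP and N550K did. The guanylate-binding proteins GBP1 (3.45 ± 0.45) and GBP2 (3.04 ± 0.32) were higher in K660N, and GBP2 also in N550K (2.95 ± 0.51). In K660N the log2 fold changes without the libraries that stand apart were 7.73 for IFIT3, 4.29 for IFIT1, 3.83 for ISG15, 4.28 for OAS1 and 2.93 for MX1. In N550K they were 6.62 for IFIT3, 3.10 for IFIT1, 2.86 for ISG15, 3.94 for OAS1 and 2.25 for MX1, and each of these 10 was still called.

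Several members were close to 0 in GFP and parental cells. IFI44L, a cytoplasmic protein of poorly known function, was read in all 6 K660N libraries (1.19 to 4.10 CPM), and had 21 reads over the 6 N550K libraries and 1 over the 6 GFP libraries. XAF1, which promotes cell death, was read in all K660N libraries (1.59 to 3.21 CPM), and had 50 reads in N550K and 2 in GFP. IFI44 stood at 1.46, 3.15 and 5.10 CPM in K660N libraries and 0, 2.15 and 3.81 CPM in N550K libraries, against 0, 0 and 0.282 CPM in GFP libraries. RSAD2 (viperin), which makes a chain-terminating nucleotide, stood at 1.43, 5.68 and 7.80 CPM in K660N libraries and 0, 1.35 and 3.43 CPM in N550K libraries, against 0, 0.108 and 1.67 CPM in GFP libraries. All 4 were called higher in K660N, and none of them passed the filter on low counts in the N550K comparison. With GFP near 0, they passed that filter through the K660N libraries, so these calls are no support beyond the reads themselves. The parental line had 0 reads of IFI44L, IFI44 and RSAD2 and 2 of XAF1. Single libraries of other lines held more: IFI44 reached 3.22 CPM in FGF3 (6 reads over its 5 libraries) and 2.57 CPM in M538I, and RSAD2 reached 3.33 CPM in WT and 3.30 CPM in M538I.

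Per length of transcript, on the scale log2(TPM + 1), BST2 was the highest member at DMSO in the K660N line (8.93 ± 0.29) and in the GFP line (8.61 ± 0.34, SD, n = 6 each), followed by UBE2L6 (7.21 ± 0.42 and 6.54 ± 0.32). BST2 (tetherin) holds budding virions at the cell surface. ISG15 stood at 6.32 ± 0.84 in K660N and 2.67 ± 0.85 in GFP, and IFIT3 at 5.96 ± 0.69 in K660N and 0.28 ± 0.19 in GFP. IFI44L remained low on this scale in both (0.76 ± 0.32 in K660N and 0.01 ± 0.02 in GFP). BST2 was thus abundant without any mutant receptor, whereas IFIT3 was among the higher members in K660N and near the floor in GFP.

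**Figure D2:**
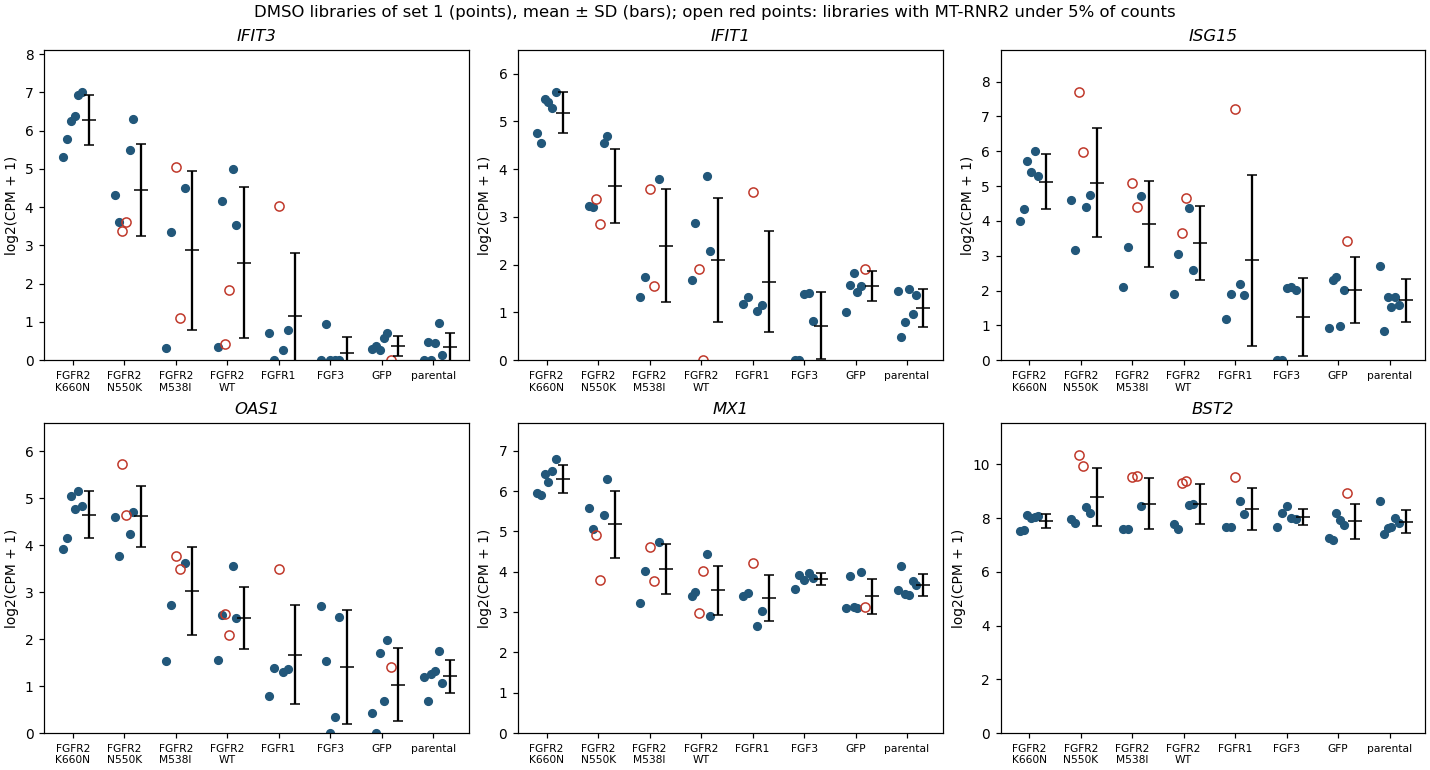
Level of IFIT3, IFIT1, ISG15, OAS1, MX1 and BST2, as log2(CPM + 1), in each DMSO library of set 1 by line; points are libraries, bars are the mean ± SD, and open red points are libraries in which MT-RNR2 took under 5% of counts. The K660N libraries of IFIT3 (38.6 to 126.8 CPM) lie above every GFP library (0 to 0.649 CPM), while BST2 in K660N (183.99 to 274.5 CPM) overlaps GFP (143.9 to 490 CPM).

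The line difference was also fitted over all arms that a line shares with GFP. The fit holds a line difference as equal in every arm, so an arm where it is large can carry the calls. In WT the mean over the members was 3.13 with Fulv+FGF2+Tram in set 1, against 1.61 in GFP. It was 2.27 against 1.90 with DMSO, 2.14 against 1.98 with Fulv+FGF2 and 2.02 against 1.98 with Fulv. With FGF2 it was 1.96 against 1.98, and with Fulv+FGF2+FIIN-3 it was 2.01 in both. In set 1, 39 of 44 tested members were higher in K660N and 0 lower (20.6% of all genes higher, 16.3% lower), and 38 of 43 were higher in N550K and 1 lower (24.2% and 18.9%). In M538I 22 of 40 were higher and 2 lower (20.9% and 20.4%), in WT 18 of 38 higher and 4 lower (21.6% and 19.4%), and in FGFR1 10 of 36 higher and 6 lower (13.7% and 12.3%, 26.1% in either direction). In the parental line 0 of 37 were higher and 6 lower (9.16% and 8.39%). Without the libraries that stand apart these counts were 40 higher and 0 lower in K660N, 37 and 1 in N550K, 23 and 2 in M538I, 19 and 6 in WT, 11 and 6 in FGFR1 and 1 and 8 in parental. In FGFR1 and WT the share of members called stayed nearer to the share over all genes than in K660N and N550K. Set 2 shares no library with set 1, and its arms gave 36 of 38 higher and 0 lower in K660N (16.8% and 16.3%), 37 of 39 and 0 in N550K (20.7% and 21.3%), and 25 of 36 and 0 in M538I (16.1% and 14.1%). WT had 17 of 33 higher and 1 lower (14.2% and 11.6%), FGFR1 8 of 29 and 1 (13.8% and 10.2%), and parental 0 of 25 and 1 (9.97% and 9.47%), or 0 of 24 and 1 without the parental library that stands apart. All of these comparisons within a set share the GFP libraries.

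By role, every tested IFIT, OAS, membrane and ADP-ribosylation member was higher in both K660N and N550K over the arms of set 1. IFIT3 was higher by 5.82 ± 0.36 in K660N and 5.31 ± 0.38 in N550K, OAS1 by 3.76 ± 0.19 and 3.79 ± 0.19, and IFITM1, which blocks fusion of virus with the cell, by 3.06 ± 0.27 and 2.70 ± 0.21 (edgeR, log2 ± SE, each adjusted p under 0.05). PARP14, PARP9 and DTX3L, which act together in ADP-ribosylation, were higher by 0.34 to 0.89. Of the 6 members for ISG15 conjugation 3 were higher in K660N and 4 in N550K. In K660N the tested members that were not called were HERC5, USP18, TRIM25, DHX58 and EIF2AK2, and IFI16 and CMPK2 were not tested. In N550K MX2, HERC5, TRIM25 and EIF2AK2 were not called, and IFI44L, IFI16 and CMPK2 were not tested. RTP4, a transmembrane chaperone, was called higher in both lines, and its fold is left out because nearly all GFP libraries held 0 reads of it. In M538I the leading members were IFIT3 (4.37 ± 0.42), IFI44, RSAD2 and IFIT2 (2.72 ± 0.39), and in WT they were RSAD2 and IFIT3 (2.72 ± 0.41). The folds of IFI44 and RSAD2 are left out because both were close to 0 in GFP cells at DMSO. IFIT3 was also close to 0 there, so its folds over GFP rest on few GFP reads. In FGFR1 IFIT3 (1.76 ± 0.50) and ISG15 (1.55 ± 0.36) led, or 1.53 ± 0.50 and 1.15 ± 0.32 without the libraries that stand apart. A few libraries weigh on these folds: ISG15 stood at 146.8 CPM in replicate 3 with DMSO, 139.3 CPM in replicate 3 with Fulv+FGF2 and 52.015 CPM in replicate 6 with Fulv+FGF2+FIIN-3, where the others of those groups held at most 3.55 CPM. The parental line went the other way for IFIT3 (fell by 1.38), IFIT2 (fell by 1.22), IFIT1 (fell by 1.00), DDX60, ISG15 (fell by 0.89) and IFIT5. Over the arms of set 1 the GFP line thus held somewhat more of these transcripts than the uninfected parental line. At DMSO alone 0 genes were called between these lines. In set 2 the share of members called lower in parental, given above, lay below the share over all genes. DHX58 (LGP2), a helicase that modulates RNA sensing, was lower than in GFP in N550K (fell by 0.36), M538I (fell by 0.56), WT (fell by 0.82) and FGFR1 (fell by 0.69) in set 1. In set 2 DHX58 was lower in WT (fell by 0.32) and FGFR1 (fell by 0.43) and higher in N550K and K660N.

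**Figure D3:**
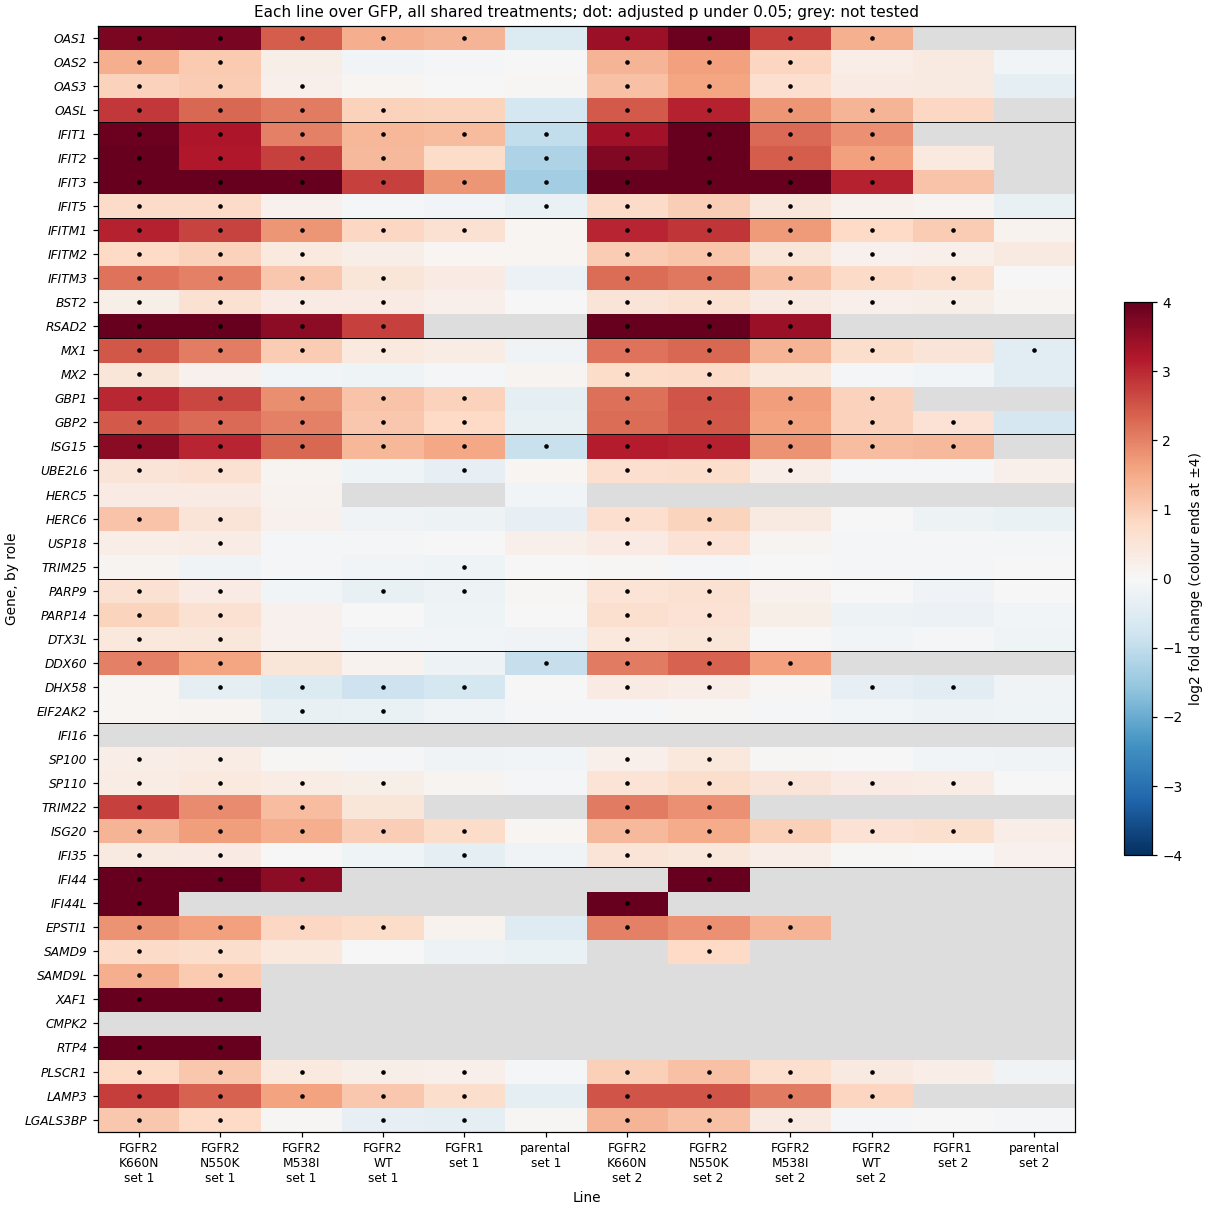
Log2 fold change against GFP (colour, ending at ±4; edgeR) of each member, grouped by role, over all shared arms, for 6 lines in set 1 (left) and set 2 (right); a dot marks adjusted p under 0.05 and grey marks genes that were not tested. Nearly every cell of the K660N and N550K columns is red and dotted, with 39 and 38 members called higher in set 1, while the parental columns hold no dotted red cell.

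Adding FGF2 to DMSO-treated cells was followed by lower members in the lines with FGFR1 or WT FGFR2, and by 0 calls in N550K and K660N. The difference between lines in this effect was not tested. In FGFR1 cells 2 of 30 members were higher and 11 lower (14.4% of all genes higher, 17.3% lower), and in WT cells 1 of 33 was higher and 8 lower (7.02% and 12.9%). The members that fell in both, with and without the libraries that stand apart, included IFITM2, IFITM3, UBE2L6, IFI35 and DHX58. ISG15, IFITM1 and BST2 were called lower in both only with those libraries. Without them the log2 fold change of ISG15 in FGFR1 was -0.33 ± 0.55 in place of -4.02 ± 1.17, that of IFITM1 in FGFR1 was -0.34 ± 0.42 in place of -2.24 ± 0.78, and ISG15 (-1.29 ± 0.50) and BST2 (-0.56 ± 0.21) were not called in WT (edgeR adjusted p = 0.11 and 0.10). UBE2L6 stood at 29.9, 35.9 and 47.5 CPM in FGFR1 cells with FGF2, against 94.6, 141.5 and 307.8 CPM with DMSO, and at 34.2, 41.1 and 70.5 CPM in WT cells with FGF2, against 75.8, 164.4 and 275.6 CPM with DMSO. The 2 arms did not overlap in either line, and UBE2L6 fell by 2.21 and 2.03 on the log2 scale (edgeR adjusted p = 0.00034 in FGFR1 and 0.0011 in WT). IFITM3 fell by 2.30 in FGFR1 and by 1.98 in WT, or by 1.43 and 1.28 without the libraries that stand apart. Without the libraries that stand apart there were 3 higher and 11 lower of 31 in FGFR1, and 1 higher and 8 lower of 34 in WT. IFIT2, called lower in FGFR1 cells, rested on the 1 DMSO library that stands apart: without it the log2 fold change was 0.15. OAS3 rose with FGF2 in FGFR1 (1.04 ± 0.20), in WT (0.89 ± 0.27) and in the control lines, parental and GFP together (0.79 ± 0.14, edgeR adjusted p = 0.00038), and was not called in WT without the libraries that stand apart (0.64 ± 0.23, edgeR adjusted p = 0.082). In the controls PLSCR1 (0.41 ± 0.11) was the other of 2 of 31 that were higher, and 0 were lower (3.7% and 2.42%), and 4 were called without FGF2 replicate 3 of GFP. Without the GFP library that stands apart 2 were higher and 2 lower.

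In N550K and K660N cells 0 of 40 and 0 of 42 members were called with FGF2, where 0.0638% and 0.253% of all genes were higher and 0.0319% and 0.261% lower (edgeR). At an unadjusted p under 0.05 the counts were 12 and 4, and DESeq2 called 3 and 1. In N550K 0 of 40 were also called without the libraries that stand apart. In M538I cells UBE2L6 alone was lower, 1 of 35 (1.93% and 3.61%), and the count ran from 0 without DMSO replicate 3 or 4, which stand apart, to 4 without replicate 2 and 8 without replicate 1. IFIT3 stood at 23.3, 57.99 and 240 CPM in N550K cells with FGF2, against 9.40, 15.1 and 77.7 CPM with DMSO. In K660N cells it stood at 27.03, 73.1 and 137.5 CPM with FGF2, against 38.6, 78.9 and 126.8 CPM with DMSO. The arms overlapped in both lines.

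With FIIN-3 added to FGF2 the leading members fell in K660N and N550K. The mean over the 46 members was 2.36 ± 0.10 with FIIN-3+FGF2 against 3.53 ± 0.29 with FGF2 in K660N, and 2.48 ± 0.11 against 3.39 ± 0.55 in N550K (SD, n = 6 each). In the controls the mean was 1.87 with FIIN-3+FGF2 and 1.89 with FGF2. In K660N 18 of 38 members were lower and 3 higher (16.6% of all genes lower, 15.7% higher), and in N550K 13 of 36 were lower and 1 higher (4.2% and 4.36%).

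IFIT3 stood at 0.455, 1.29 and 3.997 CPM in K660N cells with FIIN-3+FGF2, against 27.03, 73.1 and 137.5 CPM with FGF2 alone. In N550K cells it stood at 0.491, 1.55 and 2.70 CPM with FIIN-3+FGF2, against 23.3, 57.99 and 240 CPM with FGF2. The arms did not overlap in either line, and IFIT3 fell by 5.33 in K660N and by 5.95 in N550K on the log2 scale (edgeR adjusted p = 1.6e-07 and 1.3e-05). IFIT2 fell by 3.91 and 5.03, IFIT1 by 3.20 and 3.47, and GBP1 by 4.52 and 3.08. ISG15 stood at 3.07, 5.23 and 9.12 CPM in K660N cells with FIIN-3+FGF2, against 20.3, 26.2 and 50.9 CPM with FGF2, and fell by 2.44. MX1 stood at 20.9, 31.05 and 37.8 CPM in K660N cells with FIIN-3+FGF2, against 36.5, 71.4 and 105.6 CPM with FGF2, and at 19.6, 25.98 and 29.6 CPM against 36.2, 52.9 and 147.8 CPM in N550K cells. Even so, MX1 in both lines with FIIN-3+FGF2 lay above the GFP libraries of the same arm (9.39 to 18.4 CPM). RSAD2 had 4 reads over the 6 K660N libraries with FIIN-3+FGF2 (at most 0.250 CPM), against 1.71 to 10.02 CPM with FGF2, and IFI44L had 0 reads with FIIN-3+FGF2 and 54 with FGF2.

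In the other lines the same pair of arms moved members in both directions. In the controls 8 of 31 were higher and 2 lower (12.5% and 12.5% of all genes). In FGFR1 cells 11 of 27 were higher and 3 lower (16.2% and 15.2%), in WT cells 12 of 30 and 6 (12.3% and 11.3%), and in M538I cells 3 of 31 and 6 (12.4% and 12.8%). With a block for title-number range 3 of 39 were higher and 14 lower in M538I, with a median log2 fold change of -0.51 in place of 0.05, and without a filter on low counts 5 of 46 and 10. DHX58 was higher in each line tested: by 1.15 ± 0.23 in K660N, 1.27 ± 0.27 in N550K, 2.11 ± 0.35 in M538I, 2.05 ± 0.25 in WT, 2.14 ± 0.26 in FGFR1 and 0.73 ± 0.12 in the controls (edgeR, each adjusted p under 0.05). In FGFR1 cells DHX58 stood at 13.5, 14.99 and 17.5 CPM with FIIN-3+FGF2, against 1.29, 3.48 and 5.27 CPM with FGF2, with no overlap. OAS3 was lower in each line, by 2.17 in K660N and 1.57 in the controls, and PLSCR1, a scramblase with antiviral activity, was lower in each line as well. UBE2L6, IFI35 and IFITM3, which fell with FGF2 in FGFR1 and WT cells, were higher there with FIIN-3+FGF2. In M538I cells IFIT3 fell by 3.81 and OAS1 by 1.78, and in WT cells IFIT2 fell by 2.86 and IFIT1 by 2.18.

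Whether FIIN-3 acted differently in K660N or N550K and in the controls was tested as an interaction. In N550K 7 of 38 members had a more negative effect than in the controls and 0 a more positive one (1.25% and 1.91% of all genes): IFIT2 (-4.33 ± 0.77), ISG15 (-3.11 ± 0.58), GBP1, IFIT1, OASL, MX1 and ISG20. IFIT3 itself missed the threshold (-3.59 ± 1.12 in N550K, edgeR adjusted p = 0.069, and -2.96 ± 1.05 in K660N, adjusted p = 0.15). In K660N 10 of 41 did and 0 the opposite (0.984% and 0.823%), led by GBP1 (-4.50 ± 1.00), IFIT2 (-3.19 ± 0.68) and ISG15 (-3.02 ± 0.39). With fulvestrant and FGF2 in both arms, FIIN-3 lowered 14 of 35 members in K660N and raised 2 (13.1% and 13.2%), and lowered 9 of 36 in N550K and raised 5 (8.02% and 9.39%). IFIT3 fell by 5.52 and 5.19 there. Without the libraries that stand apart 19 of 38 were lower and 4 higher in K660N. FIIN-3 without FGF2 lowered 9 of 34 members in N550K cells and raised 4 (15.9% and 9.8%), with IFIT3 (fell by 3.71), IFIT2 (fell by 3.504) and ISG15 (fell by 2.74) leading, and 14 of 36 were lower and 4 higher without the DMSO libraries that stand apart.

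Trametinib, which blocks MEK downstream of the receptor, went with higher members in the N550K, M538I and WT lines and lower ones in the controls, while the few calls in K660N depended on the fit. The comparisons with the arm without inhibitor, the trametinib comparisons of set 2 and the interaction for trametinib were added after the group means had been seen. The mean over the members with Fulv+FGF2+Tram was 4.18 ± 0.22 in K660N, 4.35 ± 0.48 in N550K, 3.79 ± 0.77 in M538I and 3.13 ± 0.25 in WT. With Fulv+FGF2 it was 3.61 ± 0.43 in K660N, 3.06 ± 0.32 in N550K, 2.40 ± 0.24 in M538I and 2.14 ± 0.51 in WT. In FGFR1, GFP and parental cells it was 1.71 ± 0.12, 1.61 ± 0.17 and 1.45 ± 0.08 with trametinib, against 2.21 ± 1.11, 1.98 ± 0.09 and 1.85 ± 0.09 without it (SD, n = 6 each). The mean with trametinib was thus the higher one in the 4 lines with FGFR2 and the lower one in GFP and parental cells. In FGFR1 the 6 trametinib libraries (1.55 to 1.83) lay within the range of 5 of the Fulv+FGF2 libraries (1.34 to 2.15), and the sixth, at 4.39, lifts that group's mean above its median of 1.93. Of the 46 members, 34 had their highest group mean of set 1, and 40 that of set 2, in an FGFR2 line treated with trametinib.

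In N550K 31 of 41 members were higher with Fulv+FGF2+Tram than with Fulv+FGF2 and 0 lower (5.1% and 4.93% of all genes), in M538I 23 of 36 and 0 (2.01% and 1.79%), and in WT 20 of 35 and 0 (4.68% and 4.68%). In K660N 3 of 43 were higher and 0 lower (1.27% and 2.24%), and 16 of 43 without replicate 3 of the trametinib arm, which stands apart. With a block for title-number range there were 0 calls in K660N and 0 in FGFR1, against 28 of 46 higher in N550K, 17 of 45 in M538I and 21 of 40 in WT. In the controls 1 of 29 was higher and 19 lower (11.8% and 16%). In FGFR1 0 of 29 were higher and 6 lower (5.48% and 5.83%), and 2 higher and 1 lower without replicate 3 of the Fulv+FGF2 arm, the library at 4.39.

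IFIT3 stood at 98.4, 174.8 and 397 CPM in N550K cells with Fulv+FGF2+Tram, against 14.9, 40.4 and 91.4 CPM with Fulv+FGF2, and the arms did not overlap. In WT cells it stood at 21.2, 42.6 and 63.7 CPM with trametinib, against 1.51, 5.67 and 49.3 CPM without it. In M538I cells it stood at 8.65, 124.2 and 374.95 CPM with trametinib, against 6.17, 26.2 and 44.4 CPM without it. The log2 fold changes were 2.27 ± 0.39, 1.78 ± 0.54 and 2.57 ± 0.58 in the same order of lines (edgeR adjusted p = 0.0005, 0.041 and 0.014). MX1 stood at 91.8, 171.4 and 244.2 CPM in N550K cells with trametinib, against 36.2, 50.96 and 65 CPM without it, and at 36.04, 54.5 and 67.7 CPM in WT cells, against 9.03, 12.2 and 63.4 CPM. IFIT2 was higher by 2.75 ± 0.66 in N550K and by 3.13 ± 0.53 in WT. RSAD2 stood at 3.82, 10.9 and 18.9 CPM in N550K cells with trametinib, against 1.03, 1.72 and 4.02 CPM without it (2.42 ± 0.37, edgeR adjusted p = 0.00013).

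In the controls the members that fell with trametinib were led by IFIT1 (fell by 1.89), MX2 (fell by 1.83), OAS1 (fell by 1.81), OAS2 (fell by 1.64) and IFITM1 (fell by 1.56). OAS2 stood at 3.83 to 8.43 CPM in GFP and 3.99 to 7.64 CPM in parental cells with trametinib, against 9.98 to 19.4 CPM in GFP and 14.2 to 23.1 CPM in parental cells without it. In N550K cells OAS2 was higher with trametinib, at 23.4, 53.8 and 68.8 CPM against 16.6, 25.7 and 37.9 CPM. ISG20, an exonuclease, was the 1 member that rose in the controls (1.19 ± 0.18, edgeR adjusted p = 5.4e-06).

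**Figure D4:**
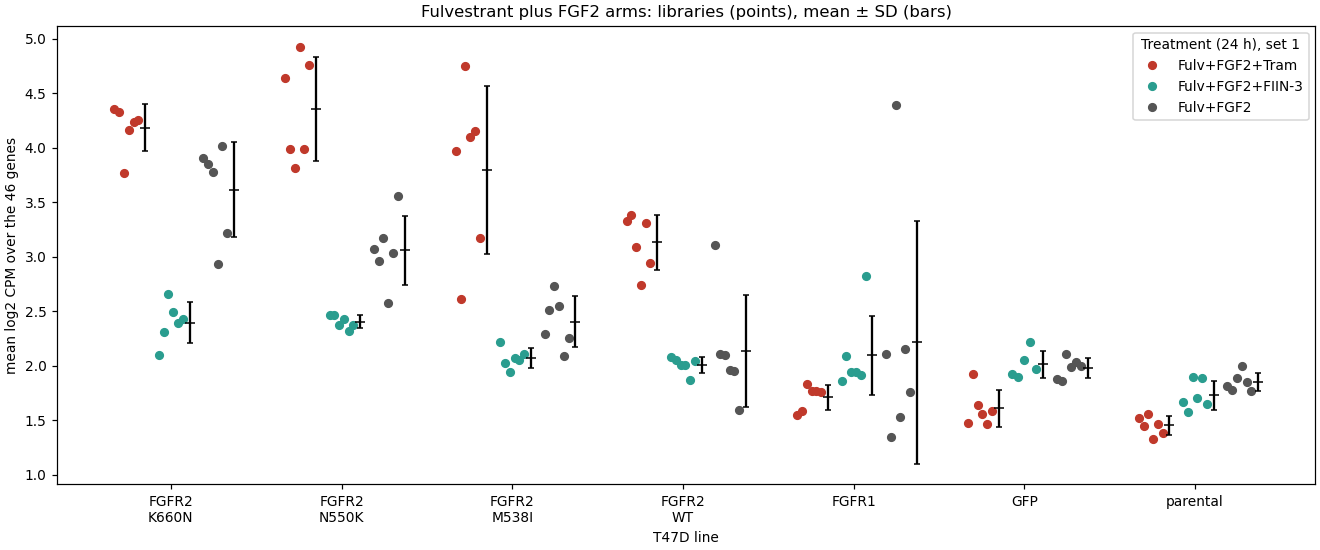
Mean log2 CPM over the 46 members in each library of set 1 treated with Fulv+FGF2+Tram, Fulv+FGF2+FIIN-3 or Fulv+FGF2, by line; points are libraries and bars are the mean ± SD. The group means in N550K are 4.35 with trametinib, 2.40 with FIIN-3 and 3.06 with neither, and 1 FGFR1 library with Fulv+FGF2 lies at 4.39, far above the other 5.

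Set directly against each other on Fulv+FGF2, trametinib and FIIN-3 differed in opposite directions by line. In N550K 31 of 39 members were higher with trametinib than with FIIN-3 and 0 lower (6.75% and 5.81% of all genes). In K660N 20 of 40 were higher and 0 lower (4.88% and 3.73%), and 30 higher and 3 lower without the libraries that stand apart. In the controls 3 of 28 were higher and 17 lower (21.7% and 21.5%), and in FGFR1 2 of 28 and 15 (13.6% and 16.4%). IFIT3 stood at 98.4, 174.8 and 397 CPM with trametinib, against 0.389, 1.16 and 1.91 CPM with FIIN-3 in N550K (7.50 ± 0.44, edgeR adjusted p = 4.3e-11). In K660N it stood at 97.2, 147.1 and 213.6 CPM with trametinib, against 0, 1.62 and 3.41 CPM with FIIN-3. RSAD2 had 476 reads in N550K and 428 in K660N with trametinib, against 2 and 0 with FIIN-3. The interaction with the controls was positive for 29 of 41 members in N550K and negative for 0 (2.98% and 2.74%), and positive for 15 of 40 in K660N and negative for 0 (0.369% and 0.00738%), or 23 of 41 and 0 without the libraries that stand apart. IFIT3 (8.73 ± 0.93 in N550K), IFIT2 (7.33 ± 0.91) and IFIT1 (5.71 ± 0.67) led.

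Set 2 held the same pair of inhibitors with palbociclib added, in other libraries. With Fulv+Palbo+FGF2+Tram against Fulv+Palbo+FGF2+FIIN-3, 35 of 39 members were higher and 1 lower in N550K (12.1% and 10.5%), 32 of 38 and 2 in M538I (17.5% and 17.1%), 21 of 39 and 3 in K660N (10.8% and 10.8%) and 13 of 31 and 4 in WT (16.4% and 15.9%). In the controls 2 of 23 were higher and 12 lower (19.5% and 19.6%), and in FGFR1 2 of 23 and 10 (12.6% and 12.5%). MX1 stood at 98.5, 192.5 and 263.3 CPM in M538I cells with trametinib, against 17.3, 25.8 and 31.2 CPM with FIIN-3, where the 5 FIIN-3 libraries lay below all 6 trametinib libraries. IFIT1 in M538I stood at 36.6 to 70.7 CPM with trametinib and 0.528 to 2.43 CPM with FIIN-3 (5.16 ± 0.27, edgeR adjusted p = 7.6e-15). DHX58 and MX2 were lower with trametinib in K660N, M538I and WT, and MX2 also in N550K. OAS2 was higher with trametinib in N550K and M538I and lower in WT, FGFR1 and the controls.

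**Figure D5:**
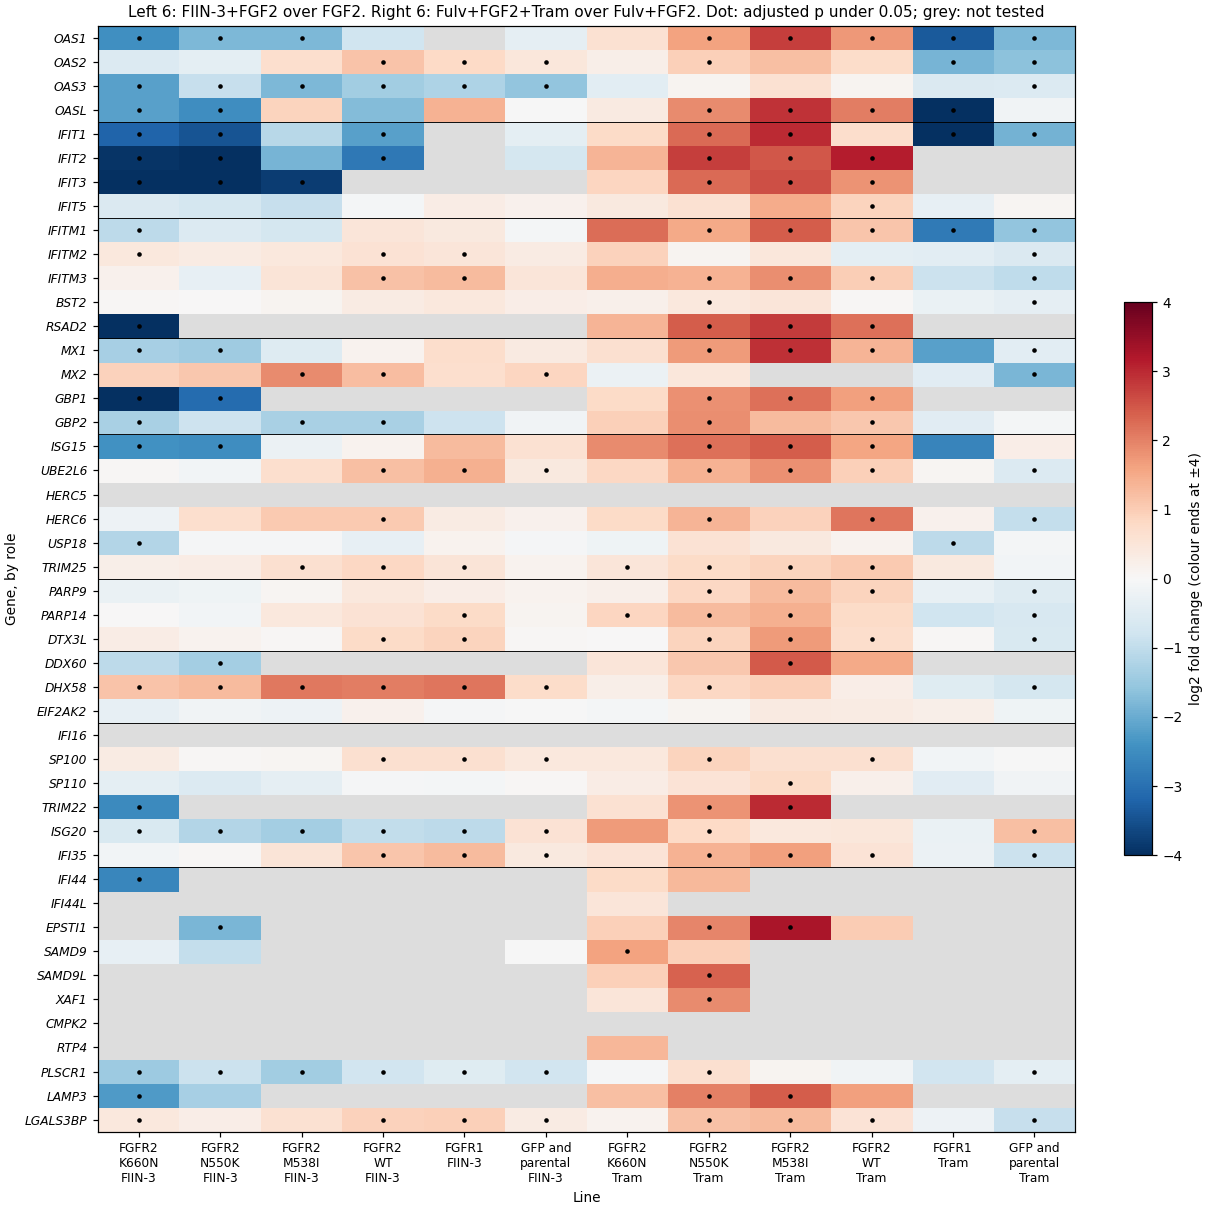
Log2 fold change (colour, ending at ±4; edgeR) of each member, grouped by role, for FIIN-3+FGF2 over FGF2 (left 6 columns) and Fulv+FGF2+Tram over Fulv+FGF2 (right 6 columns) in 6 lines or line groups; a dot marks adjusted p under 0.05 and grey marks genes that were not tested. In N550K IFIT3 is at -5.95 with FIIN-3 and at 2.27 with trametinib, and DHX58 is above 0 with FIIN-3 in each line.

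Fulvestrant by itself was followed by few calls. Against DMSO 0 of 37 were called in N550K (edgeR, 0% of all genes higher and 0.00793% lower; 2 at an unadjusted p under 0.05 and 0 by DESeq2), 1 of 43 was higher in K660N (PARP9, 0.68 ± 0.14; 0.0315% and 0.22%), and 1 of 31 was lower in the controls (HERC6 fell by 1.18; 0.572% and 0.977%). The mean over the members with Fulv was 3.81 ± 0.32 in K660N and 3.07 ± 0.24 in N550K, against 3.68 ± 0.17 and 3.10 ± 0.41 with DMSO. In N550K 0 of 39 were called without the libraries that stand apart (edgeR, 4 at an unadjusted p under 0.05), and in the controls 1 of 31 was lower. No comparison of palbociclib with an arm without it was fitted, so its levels are a description. The Palbo arm was in set 2, whose means are not on the scale of the set 1 means above. For example, the lowest group mean of IFI44L was -0.52 log2 CPM in set 2 and -1.86 in set 1. With Palbo in set 2 the mean was 4.05 ± 0.47 in K660N, 3.40 ± 0.43 in N550K, 2.79 ± 0.31 in M538I and 2.58 ± 0.45 in WT. It was 2.80 ± 1.20 in FGFR1, 2.26 ± 0.09 in FGF3, 2.30 ± 0.20 in GFP and 2.13 ± 0.12 in parental cells (n = 5). In FGFR1 1 library at 5.22 sets that value, and the other 5 lay between 2.21 and 2.55. In set 1 Fulv+Palbo+FGF2 gave 3.84 ± 0.50 in K660N and 3.68 ± 0.51 in N550K, against 2.04 ± 0.17 in GFP. Fulv+FGF2 without palbociclib gave 3.61 ± 0.43 in K660N, 3.06 ± 0.32 in N550K and 1.98 ± 0.09 in GFP.

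The FGF3 libraries at DMSO held 603534 to 3145400 counts, against 5841090 to 9716900 in the GFP libraries. On average 30.4 members were read per FGF3 library and 40 per GFP library, so low depth limits this comparison. In the FGF3 line 0 of 29 members were higher and 1 lower than in GFP at DMSO (3.24% and 3.94% of all genes, 7.18% in either direction). The 1 was IFI35, which stood at 21.2 to 28.99 CPM in the 5 FGF3 libraries, against 37.2 to 77.4 CPM in the 6 GFP libraries (fell by 1.01, edgeR adjusted p = 0.025). Without the GFP library that stands apart 3 were higher and 2 lower. Without FGF3 replicate 2, 4 or 5 there were 0 calls, and without replicate 1 there were 2, both lower. FIIN-3 against DMSO gave 3 of 24 higher and 0 lower in this line (4.39% and 6.03%), MX1 (2.19 ± 0.68), DHX58 and UBE2L6, and 0 higher and 1 lower without replicate 2 of the FIIN-3 arm. Without DMSO replicate 1, 2, 4 or 5 there were 0 calls. The FIIN-3 replicate 2 library held 271.7 CPM of MX1, where the highest of the other 5 held 40.8 CPM.

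Genes that act upstream of the members were tested beside them, from lists of receptors and kinases, transcription factors, sensors, negative regulators and interferons. Over the arms of set 1, where 20.6% of all genes were higher and 16.3% lower in K660N and 24.2% and 18.9% in N550K, 6 of 7 transcription factors were higher in K660N and 0 lower, among them IRF1, IRF9, IRF7, STAT2 and IRF3. In N550K 5 were higher and 1 lower. IRF1 was higher in K660N at DMSO (1.84 ± 0.28, edgeR adjusted p = 0.0012). With FIIN-3+FGF2 against FGF2, IRF1 fell by 2.01 in K660N and 1.86 in N550K. With trametinib on Fulv+FGF2, IRF1 (1.70 ± 0.28) and IRF9 (1.26 ± 0.23) were higher in N550K, whereas in the controls IRF9 fell by 0.46. Of the 9 receptors and kinases, 2 were higher and 1 lower in K660N, and 3 and 1 in N550K, which is near the shares over all genes.

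Antigen presentation genes, also interferon targets, were higher in 11 of 12 cases in K660N and in N550K over the arms of set 1. With FIIN-3+FGF2 against FGF2, 4 of 12 were higher in K660N, B2M (0.82 ± 0.15) among them, and 2 lower (15.7% and 16.6% of all genes), and in N550K 0 of 12 were called by edgeR (4.36% and 4.2%), with 2 at an unadjusted p under 0.05. IFI27, an interferon target outside the 46, stood at 25.9, 48.1 and 69.6 CPM at DMSO in K660N, against 0, 0.337 and 0.555 CPM in GFP. With FIIN-3+FGF2 against FGF2, IFI27 was not called (-0.16 ± 0.20 in K660N and -0.71 ± 0.39 in N550K, edgeR adjusted p = 0.58 and 0.28). The interferon genes themselves were hardly read. Over all 647 libraries 11 interferon genes had 645 reads in all, 82 libraries had any, and 9 had 10 or more. IFNL1, a type III interferon, was read in 34 libraries and IFNB1 in 13. None of the 11 passed the filter in any of the 58 comparisons.

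The members did not all move alike. For each, Pearson's r of its group means with the mean of the other 45 was computed, as a description in which the groups of a set share sequencing depth and, within a line, the same cells. Over the 64 groups of set 1, 14 members had r of 0.9 or more, 23 lay between 0.5 and 0.9 and 9 lay below 0.5. Over the 48 groups of set 2 these counts were 13, 29 and 4. IFIT1 (0.96), ISG15 (0.95), OAS1 (0.94) and MX1 (0.94) were highest in set 1, and their group means ran over wide ranges, for ISG15 from 0.27 to 6.59 log2 CPM. DHX58 (-0.05), MX2 (0.05), TRIM25 (0.18) and USP18 (0.24) were lowest in set 1, and DHX58 (0.11) and MX2 (0.19) also in set 2. TRIM25, a ubiquitin ligase that activates RIG-I, ran only from 5.07 to 6.30 log2 CPM. IFI16 and CMPK2 passed the filter on low counts in 0 of 58 comparisons and HERC5 in 6.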

How the data were processed

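STAR and the build hg19 are named per the submitters' processing notes; its version and the counting program are not given in the sources used here. Raw counts of reads per gene make up the deposited count table, and the authors' second table holds log2(TPM + 1) values, of which 45 columns (DMSO libraries) were used and 602 were not. Groups came from the sample labels. The members and the lists of other genes were chosen with earlier results of these data known.

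Each comparison was fitted on the libraries of its own groups, over all genes, with edgeR 4.0.16 (R 4.3.3): TMM factors, filterByExpr (min.count 10), the quasi-likelihood test, and Benjamini-Hochberg adjusted p under 0.05 as the call. Errors are SE for fold changes and SD for group values. CPM is counts scaled to a common library total by TMM within a set, and log2 CPM has a prior count of 2. The fits were tested on simulated data. Alternatives were DESeq2 size factors for scaling, no filter on low counts, DESeq2 1.42.0, a block for each range of 96 title numbers, and leaving out libraries that stand apart or single libraries; 14 comparisons were added after seeing the data. Tables were joined with Python 3.11.15. Among 1559 pairs of libraries of the same group 0 held identical counts. Per-library values are given for ISG15, IFIT1, IFIT3, MX1, OAS1, IFI44L and up to 4 more members with the largest change at DMSO; up to 10 called members are named per direction. Some results are not reported here.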

Additional observations from a re-analysis of the deposited data

Results flagged for a closer look

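In each group the library with the highest or lowest mean log2 CPM over the 46 members was set against the others of its group by Dixon's gap test. That test marked 21 libraries, 19 as the highest and 2 as the lowest of their group, where chance marks about 1 in 20 groups. The farthest were in the FGFR1 line. With Palbo in set 2, FGFR1 replicate 4 had a mean of 5.22, where the others lay between 2.21 and 2.55. Its ISG15 was 364.7 CPM and its MX1 965 CPM, against at most 5.30 and 34.02 CPM in the others. With Fulv+FGF2 in set 1, FGFR1 replicate 3 had 4.39, against 1.34 to 2.15 in the others, with ISG15 at 139.3 CPM and MX1 at 247.6 CPM. The inserted FGFR1 was read at 1541 and 364.9 CPM in these libraries. FGFR1 replicate 3 with DMSO, which stands apart by its MT-RNR2 share, had 2.93.

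Other FGFR1 libraries were high in arms with FIIN-3: replicate 6 with Fulv+FGF2+FIIN-3 (2.82), replicate 1 with Palbo+FGF2+FIIN-3 (2.48) and replicate 2 with Fulv+Palbo+FGF2+FIIN-3 (2.77). In the FGF3 line the high libraries were FIIN-3 replicate 2 (3.89) and Fulv+Tram replicate 3 (2.60) in set 1, and Palbo+FIIN-3 replicate 5 (3.76), Fulv+Palbo+FIIN-3 replicate 2 (2.64) and Fulv+Palbo+Tram replicate 3 (3.05) in set 2. In GFP they were FGF2 replicate 3 in set 1 (2.36) and Fulv+Palbo+FGF2+Tram replicate 6 in set 2 (2.81). In N550K, all in set 2, they were Palbo+FGF2+FIIN-3 replicate 3 (3.72), FIIN-3 replicate 1 (3.25) and Fulv+Palbo+FGF2+Tram replicate 4 (5.82). In K660N, Fulv+Palbo+FGF2+FIIN-3 replicate 2 in set 2 was high (3.90), and Fulv+FGF2+Tram replicate 3 in set 1, which stands apart, was low (3.76). In WT, set 1, Fulv+FGF2 replicate 1 (3.11) and FIIN-3+FGF2 replicate 4 (2.05) were high and Fulv+FGF2+FIIN-3 replicate 5 was low (1.86). A high mean did not always go with high leading members. In FGF3, Fulv+Palbo+FIIN-3 replicate 2 (990353 counts) held 0 CPM of ISG15 and 27.1 CPM of MX1. The others there held at most 1.43 and 24.6 CPM. N550K FIIN-3 replicate 1 and WT FIIN-3+FGF2 replicate 4 held less MX1 than the highest of the others, but more ISG15.

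FIIN-3 on FGF2 had a more negative effect than in the controls for 7 members in N550K and 10 in K660N. Of all genes 3.16% and 1.81% were called there in either direction (edgeR interaction terms). The difference of trametinib from FIIN-3 was more positive than in the controls for 29 members in N550K and 15 in K660N. There 5.72% and 0.377% of all genes were called in either direction.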

How the results depend on the processing

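Of the counts of called members under other settings, 51 moved by more than 1.5 times and a larger number did not. DESeq2 size factors moved none. The counts in this paragraph take both directions together. The numbers of all genes tested and called also changed with the setting, so a count alone does not set the members apart from other genes. At DMSO the called members of WT, M538I and N550K were all higher. With trametinib against Fulv+FGF2 they were all higher in K660N and all lower in FGFR1. Without a filter on low counts the counts were, at DMSO, 1 in parental, 3 in WT, 5 in M538I, 11 in N550K and 2 in FGF3; over set 2, 6 in parental and 15 in FGFR1; with FGF2, 5 in controls, 7 in M538I, 1 in N550K and 1 in K660N; with FIIN-3+FGF2, 15 in M538I and 23 in N550K; with Fulv, 2 in controls and 2 in K660N; with FIIN-3, 20 in N550K and 10 in FGF3; with trametinib against Fulv+FGF2, 21 in FGFR1 and 7 in K660N; and 23 for the trametinib interaction in K660N. DESeq2 gave, at DMSO, 2 in M538I, 12 in N550K and 3 in FGF3, 3 in parental over set 2, with FGF2 5 in controls, 8 in M538I, 3 in N550K and 1 in K660N, with trametinib 10 in K660N, and 24 for its interaction there. A block for title-number range gave, at DMSO, 3 in M538I, 13 in N550K and 2 in FGF3, with FGF2 1 in controls, 8 in M538I, 2 in N550K and 1 in K660N, 17 in M538I with FIIN-3+FGF2, 2 in K660N with Fulv, 6 in FGF3 with FIIN-3, 11 for the FIIN-3 interaction in N550K, and 0 in FGFR1 and K660N with trametinib. Without the libraries that stand apart the counts were, at DMSO, 1 in M538I, 19 in N550K and 5 in FGF3, with FGF2 4 in controls and 0 in M538I, 33 for trametinib against FIIN-3 in K660N, 16 for trametinib in K660N, and 23 for its interaction there. With FIIN-3+FGF2 and no filter, 2 of 46 members were higher and 21 lower in N550K. There 1298 of 31611 genes were called, against 1080 of 12628 with the filter. In M538I 5 of 46 were higher and 10 lower, where 3233 of 29987 genes were called, against 3080 of 12217 with the filter. At DMSO in N550K, without the libraries that stand apart, 1027 of 12948 genes were called. The cause of these moves was not tested.

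Leaving out single libraries gave 0 to 2 calls in FGF3 at DMSO, 0 to 8 in M538I with FGF2, and 0 to 2 in FGF3 with FIIN-3. It gave 4 in controls with FGF2, and, with trametinib against Fulv+FGF2, 3 in FGFR1 and 16 in K660N. A sign turned for IFIT2 with FGF2 in FGFR1 (0.15 without the library that stands apart; without single libraries from -3.97 to 0.15) and for OASL with trametinib in FGFR1 (0.017 without Fulv+FGF2 replicate 3). No paired analysis was possible because replicate numbers were given in accession order and pair no samples. Members at 0 to 2 reads in a group, such as IFI44L in GFP, allow no fold at this depth.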

Other observations

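Reads of the interferon genes were few and uneven. The library with the most was M538I with Fulv+FGF2 in set 1, replicate 6, which held 46 reads of IFNL2, 33 of IFNL3 and 24 of IFNB1, beside reads of IFNL1, while its mean over the 46 members was 2.25 log2 CPM, against a group mean of 2.40 ± 0.24 (SD, n = 6). Over all libraries IFNL3 had 91 reads in 12 libraries and IFNL2 76 in 7.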
